A study of Mus musculus with 15 samples.

Results

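The alpha-globin promoters were followed in erythroid cultures that lack the upstream elements R1 and R2 together, and each contact was set against the same contact in control cultures. The 6 libraries described are the 3 labelled as lacking R1 and R2 (R1R2_KO) and the 3 labelled as control, out of 15 samples in the series. They were chosen by their labels and column names and by no measured value. All 6 are of the strain F1 C57Bl6 / CBA. Fetal liver cells of E12.5 mouse embryos were expanded for 5 to 7 days with Epo, SCF and dexamethasone, depleted of Ter119-positive cells and differentiated in high Epo for 18 hours. Control cultures carry no named deletion and both groups were grown alike. The labels give the missing elements but not the deletion ends or whether both alleles carry them. Cultured progenitors stand in for fetal liver red cell precursors, and contact counts carry no expression from which the cell type could be checked.

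NG Capture-C cuts crosslinked chromatin with the enzyme DpnII, joins ends that lie close together and enriches the joined products with oligonucleotides for chosen promoters. The captured viewpoints were the alpha-globin genes Hba-a1 and Hba-a2, the adult beta-globin genes Hbb-b1 and Hbb-b2, and Slc25a37, which encodes mitoferrin 1, the carrier that brings iron into mitochondria for haem synthesis. The alpha-globin genes are served by a cluster of enhancer elements upstream of them. R1, R2, R3 and Rm lie in introns of Nprl3, a widely expressed neighbour gene, and R4 lies between Nprl3 and the globin genes. Farther upstream lie Mpg, Rhbdf1, Snrnp25 and Il9r, and downstream lies Sh3pxd2b. In erythroid cells the promoters and the cluster come into frequent contact. Hba-x, the embryonic zeta-globin gene, lies between R4 and the adult genes. The beta-globin genes have a distal enhancer cluster of their own on another chromosome, the locus control region, and neither it nor Slc25a37 was targeted.

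Both adult alpha-globin promoters were bait, and the deposited table joins them. The 250 bases before each start are shown as the capture targets, 5′ to 3′, from the RefSeq promoter table of build GRCm38.p6. Capitals mark GATAAG (a core letter string bound by GATA factors), CCAAT and TATAA, each searched on both strands, with no overlap between them.
Hba-a1, chr11:32283422-32283671, plus strand: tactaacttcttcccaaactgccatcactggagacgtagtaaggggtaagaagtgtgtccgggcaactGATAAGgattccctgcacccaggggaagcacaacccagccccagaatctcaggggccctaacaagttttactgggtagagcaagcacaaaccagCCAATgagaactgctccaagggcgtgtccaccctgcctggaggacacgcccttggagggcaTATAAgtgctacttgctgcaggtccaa
Hba-a2, chr11:32296242-32296491, plus strand: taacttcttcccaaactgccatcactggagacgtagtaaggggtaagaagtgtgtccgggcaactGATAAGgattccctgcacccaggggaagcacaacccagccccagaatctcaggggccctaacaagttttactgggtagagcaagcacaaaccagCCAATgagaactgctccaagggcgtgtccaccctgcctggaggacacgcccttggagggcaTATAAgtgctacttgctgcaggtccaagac
Set against each other with a shift of 3 bases, these windows were equal at 247 of 247 bases. Each holds 1 GATAAG, 1 CCAAT and 1 TATAA. Over 32851 promoter windows of the same length, 6.55% hold GATAAG, 33.8% CCAAT and 22.8% TATAA. Neither window holds GATC, the letters that DpnII cuts, which 41.9% of all windows hold. A read could therefore not be assigned to 1 of these copies from this stretch, and what follows is the sum over both.

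All other coordinates are those of the deposited tables, in mm9. A level is reads per 100000 reads of the viewpoint's own chromosome that lie more than 2 kb from the viewpoint, called scale reads, and changes are R1R2_KO against control. A call is an adjusted p under 0.05 from edgeR's quasi-likelihood test with Benjamini-Hochberg adjustment. Libraries held 66880 to 138216 reads at alpha-globin, 45301 to 99096 at beta-globin and 25336 to 47852 at Slc25a37. At alpha-globin 42265 to 88666 of them were scale reads. PCR reads carry no molecular identifiers, so whether each read is an independent molecule could not be checked. With 3 against 3 libraries an exact two-sided permutation test cannot go below 0.1, and edgeR's smaller p-values borrow the spread of all features of a viewpoint. Control library 1 had the highest share of reads on other chromosomes among controls at each viewpoint, 38.9% at alpha-globin against 32.9% and 28.0% in the other 2. The R1R2_KO libraries had 30.3% to 31.7% there, inside the control range. R1R2_KO library 1 had under 20% of the level of the other 2 R1R2_KO libraries at 29 of 233 beta-globin fragments (12.4%), and at none of 328 alpha-globin fragments.

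The deleted elements came first as a check of the labels. Element blocks were the DpnII fragments whose reads fell under 50% of the other single deletions in the library that lacks that element alone, a rule that used none of the 6 libraries here. The R1 block, chr11:32144385-32146566, had levels of 1085, 1072 and 1111 in control and 245, 300.5 and 275 in R1R2_KO, or 25.1% of control (log2 change -2.02, SE 0.11). The R2 block, chr11:32150268-32151881, had 1848, 2252 and 2205 in control and 198, 260 and 271 in R1R2_KO, or 11.6% of control (log2 change -3.15, SE 0.12). Both blocks were low in every R1R2_KO library and neither reached 0. Within the R2 block the 2 inner fragments kept the least, from 705 to 35.3 at chr11:32150623-32151061 and from 772 to 50.8 at chr11:32151062-32151881, whereas chr11:32150268-32150622 went from 624 to 157. Both R1 fragments kept more, from 513 to 121 at chr11:32144385-32145278 and from 577 to 153 at chr11:32145279-32146566. Whether the remaining R1 reads come from sequence inside or outside the deletion was not tested. Because reads of deleted sequence must fall, these blocks were adjusted apart from all others.

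Contacts fell over the whole interval from just outside R1 to the globin genes, and most between the missing elements. The stretch from R1 to R2 had levels of 4222, 4468 and 4350 in control and 1871, 2092 and 2056 in R1R2_KO, which is 46.2% of control (log2 change -1.12, SE 0.06, edgeR adjusted p = 3.08e-13). The stretch from R2 to R3 had 4142, 4191 and 4198 in control and 2153, 2394 and 2352 in R1R2_KO, 55.1% of control (log2 change -0.87, SE 0.05). In neither stretch did the groups overlap. From R3 to Rm the levels were 4904, 4861 and 4932 in control and 3558, 3551 and 3575 in R1R2_KO, 72.7% of control (log2 change -0.46, SE 0.04). From Rm to R4 the level fell to 66.1% of control (log2 change -0.60, SE 0.06). Of 14 stretches tested, 13 passed 0.05 (92.9%), so a call alone sets no stretch apart and the sizes carry the comparison.

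The remaining elements lost contact as well. R3, from which R2 is the nearest deleted neighbour, had levels of 1350, 1376 and 1403 in control and 813, 958 and 942 in R1R2_KO (log2 change -0.62, SE 0.10). Rm had 1205, 1216 and 1328 in control and 764, 927 and 889 in R1R2_KO (log2 change -0.55, SE 0.09). R4, the element nearest to the genes, had 1855, 2389 and 2425 in control and 1179, 1287 and 1372 in R1R2_KO (log2 change -0.80, SE 0.09). No R1R2_KO library overlapped a control library at any of the 3. The ratio of R4 to Rm within a library changed by -0.25 on the log2 scale (SE 0.12, exact permutation p = 0.3, groups overlapping) and that of R4 to R3 by -0.18 (SE 0.12, exact permutation p = 0.3), so a deeper loss at R4 was not shown.

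**Figure D1:**
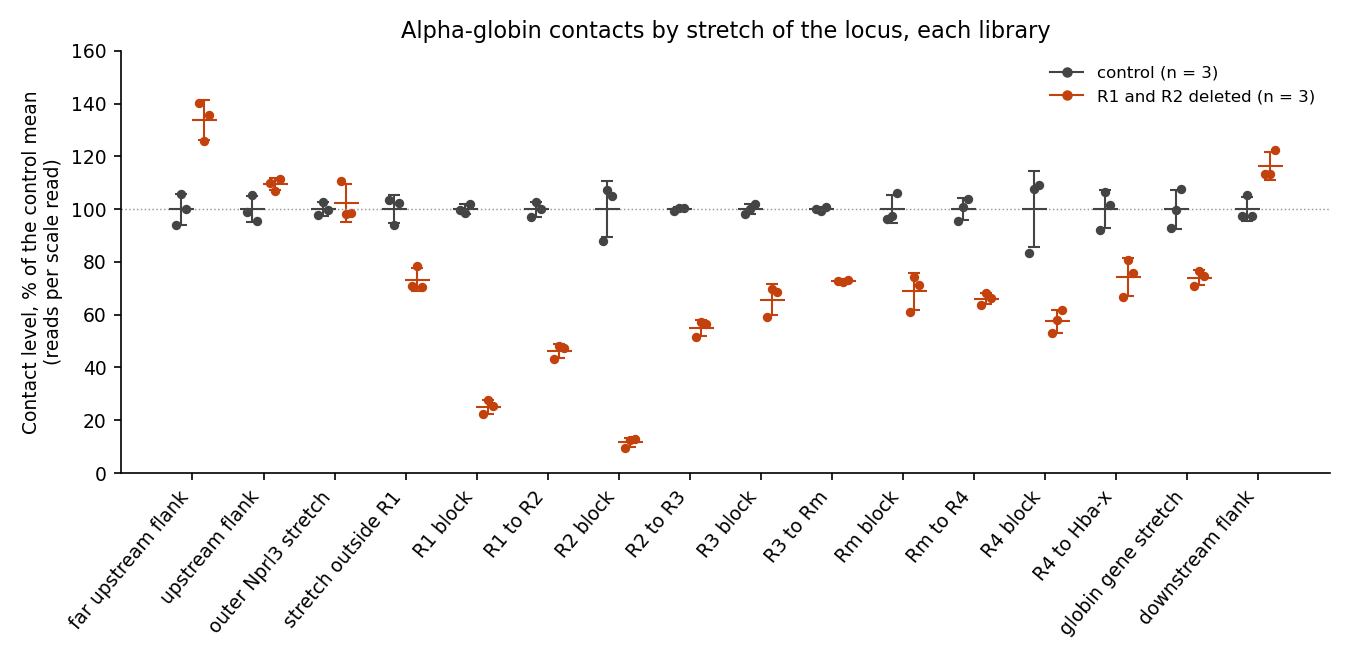
Contact level of each stretch of the alpha-globin locus as percent of its control mean, in order along the chromosome from the far upstream flank to the downstream flank; points are libraries, horizontal marks means and bars SD (n = 3 per group). The deleted R2 and R1 blocks lie at 11.6% and 25.1%, the stretch from R1 to R2 at 46.2%, and the outer Nprl3 stretch at 102%.

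On the far side of R1 the loss stopped inside Nprl3. The stretch just outside R1, chr11:32139865-32144384, had levels of 1881, 1708 and 1861 in control and 1290, 1422 and 1277 in R1R2_KO (log2 change -0.45, SE 0.07). The next stretch, chr11:32131944-32139864, taken as the rest of Nprl3 toward its 3′ end with its outer end placed approximately, had 2428, 2556 and 2472 in control and 2747, 2435 and 2449 in R1R2_KO. There the groups overlapped and the log2 change was 0.04 (SE 0.06, edgeR adjusted p = 0.49). The outer stretch did change relative to its neighbour: the log2 ratio of the outer stretch to the stretch outside R1 was 0.37, 0.58 and 0.41 in control and 1.09, 0.78 and 0.94 in R1R2_KO, a difference of 0.48 (SE 0.11, exact permutation p = 0.1, groups not overlapping). This ratio lies within a library, so the choice of scale does not touch it. On other scales the outer stretch itself moved, to 0.31 when reads within 500 kb set the scale and to -0.43 when reads beyond 5 Mb did, and both passed 0.05.

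Single fragments gave the same loss in finer steps. Of 390 alpha-globin fragments tested within 500 kb, 102 passed 0.05 (26.2%), of which 87 were lower (22.3%) and 15 higher (3.85%). Other scales moved this split, to 39 lower and 52 higher when reads within 500 kb set the scale, 56 and 27 with TMM factors, 60 and 20 with whole-genome reads, and 149 and 2 with reads beyond 5 Mb. The median log2 change of all 390 was -0.05, and it was 0.55 over 2180 fragments with no filter on low counts. The filter kept 17 of 301 listed fragments in the far upstream flank and 81 of 249 in the downstream flank. It kept 10 of 10 from R1 to R2, so the 390 favour the enhancer cluster and the genes. From R1 to R2, 10 of 10 tested fragments fell, with log2 changes of -1.50 to -0.87 and a median of -1.11. From R2 to R3, 10 of 10 fell, with a median of -0.87. From R3 to Rm 12 of 19 fell, with a median of -0.47 and all 19 below 0. From Rm to R4 6 of 6 fell, with a median of -0.61. Outside R1 3 of 8 fell, and in the outer Nprl3 stretch 1 of 20 fell, where the median was 0.18.

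The 10 lowest fragments all lay between R1 and R3. The lowest, chr11:32146567-32146860, adjoins the R1 block. It had levels of 499.6, 600 and 592 in control and 205, 185 and 205 in R1R2_KO (log2 change -1.50, SE 0.14, edgeR adjusted p = 1.21e-13). Its neighbour chr11:32146861-32146902 went from a mean of 233 to 101 (log2 change -1.26, SE 0.19). A run of 6 more, from chr11:32148903-32149605 to chr11:32150164-32150267 at the near edge of R2, had log2 changes of -1.30 to -1.06. Of the run, chr11:32149641-32149927 held the most contact, with 616, 581 and 716 in control and 281, 248 and 262 in R1R2_KO. The other 2 lay across R2, where chr11:32151882-32152404 went from 653 to 316 (log2 change -1.05) and chr11:32152948-32153291 from 497 to 240 (log2 change -1.06). The smallest loss between R1 and R2 was at chr11:32148396-32148902, with 492, 406 and 323 in control and 238, 222 and 203 in R1R2_KO (log2 change -0.87, SE 0.15).

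The extremes of the other stretches were as follows. From R2 to R3 the smallest loss was at chr11:32153557-32153935, from 333 to 221 (log2 change -0.61, SE 0.15). From R3 to Rm the lowest was the short fragment chr11:32157249-32157269, from 66.0 to 36.2 (log2 change -0.86, SE 0.28), and the highest, chr11:32159205-32159553, had levels of 286, 259 and 243 in control and 201, 258 and 277 in R1R2_KO (log2 change -0.12, edgeR adjusted p = 0.67). From Rm to R4 the range ran from -0.72 at chr11:32167266-32167509 to -0.48 at chr11:32167510-32168370. Outside R1 the lowest, chr11:32144133-32144384, adjoins the block and went from 341 to 194 (log2 change -0.83), and the highest, chr11:32142057-32142085, had a log2 change of -0.01 (edgeR adjusted p = 0.99). In the outer Nprl3 stretch the lowest, chr11:32139484-32139724, went from 241 to 166 (log2 change -0.51), and the highest, chr11:32135189-32135765, had a log2 change of 0.47 that did not pass (edgeR adjusted p = 0.23).

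**Figure D2:**
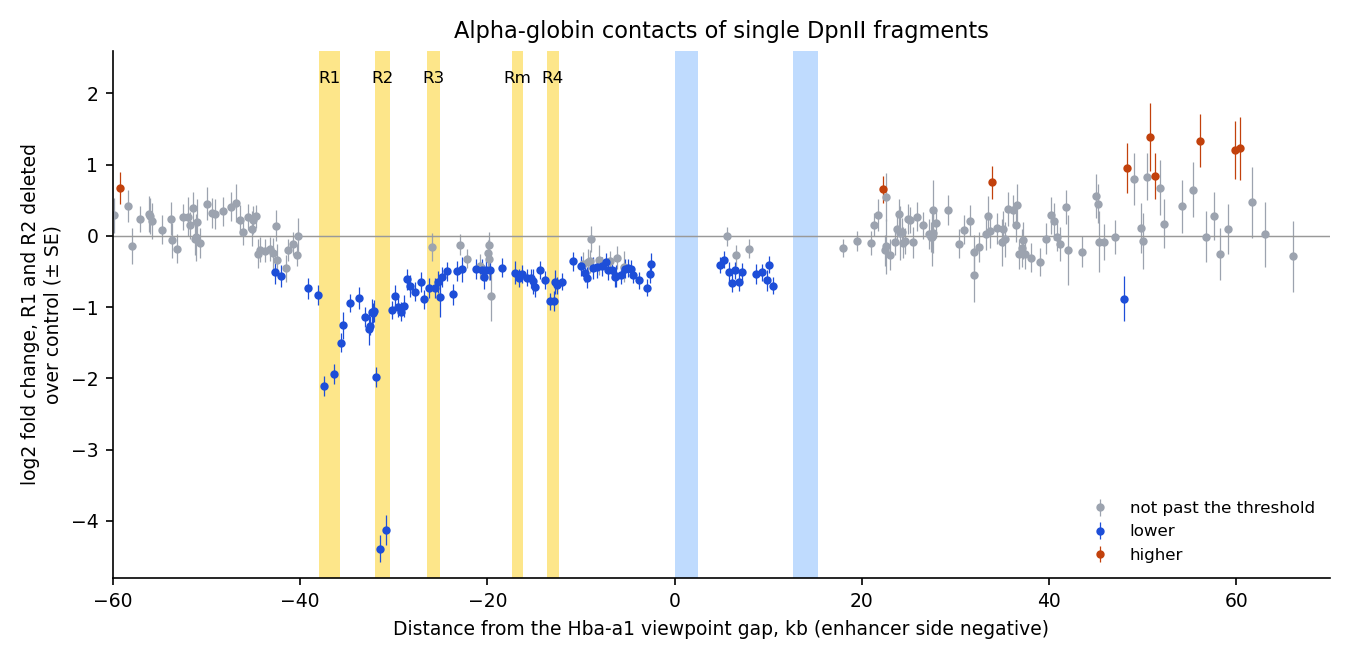
Log2 fold change (± SE) of each tested DpnII fragment at the alpha-globin viewpoint against its distance in kb from the Hba-a1 viewpoint gap, with the enhancer side negative; yellow bands are the element blocks, blue bands the viewpoint gaps, and colours mark fragments called lower or higher. Fragments between R1 and R2 lie between -1.50 and -0.87, and those beyond R1 return toward 0.

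The globin gene end of the locus also lost contact, by less than the stretch between R1 and R2. The stretch from R4 to Hba-x had levels of 4524, 5216 and 4974 in control and 3265, 3961 and 3724 in R1R2_KO (log2 change -0.43, SE 0.06), with 9 of 14 tested fragments lower. The stretch that holds the globin genes, chr11:32175105-32204979, had 17233, 18484 and 19986 in control and 13152, 14201 and 13858 in R1R2_KO (log2 change -0.44, SE 0.06), with 25 of 40 fragments lower and 1 higher. Its lowest fragment, chr11:32179084-32179641, went from 860 to 520 (log2 change -0.72, SE 0.12). Its 1 higher fragment, chr11:32204332-32204781, lies at the downstream end and had 178, 111 and 94.8 in control and 179, 208 and 223 in R1R2_KO (log2 change 0.65, SE 0.19, edgeR adjusted p = 0.0059). From R4 to Hba-x the extremes were chr11:32169922-32170701 (log2 change -0.64) and chr11:32173393-32173449 (log2 change -0.05, edgeR adjusted p = 0.90). Of the 87 lower fragments, 74 lay upstream of the genes, 12 between them and 1 downstream, and the farthest lay 42.6 kb from a viewpoint. Fragments tested numbered 278 upstream and 97 downstream.

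Ratios within a library separated the stretches without any scale. Set against the globin gene stretch, the stretch from R1 to R2 fell by 0.68 on the log2 scale (SE 0.06) and that from R2 to R3 by 0.43 (SE 0.06), whereas that from R3 to Rm changed by -0.03 (SE 0.07, exact permutation p = 0.7) and that from R4 to Hba-x by 0.00 (SE 0.07, exact permutation p = 1). The log2 ratio of R1 to R2 over R2 to R3 was 0.03, 0.09 and 0.05 in control and -0.20, -0.20 and -0.19 in R1R2_KO, a difference of -0.25 (SE 0.02, exact permutation p = 0.1). Groups did not overlap in the first 2 of these comparisons nor in the last. The ratio did not return evenly toward the genes. From Rm to R4 it fell by 0.16 (SE 0.03), at R4 by 0.36 (SE 0.09) and at R3 by 0.18 (SE 0.06), each with groups not overlapping (exact permutation p = 0.1), and Rm to R4 over R3 to Rm fell by 0.14 (SE 0.04, groups not overlapping). At Rm it fell by 0.11 (SE 0.06, exact permutation p = 0.1, groups not overlapping). The stretch outside R1 changed by -0.02 (SE 0.09, exact permutation p = 0.8, groups overlapping). Relative to the gene end, the loss was thus deepest from R1 to R2. It was smaller from R2 to R3, from Rm to R4 and at R3, Rm and R4. It was not shown outside R1, from R3 to Rm or from R4 to Hba-x.

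Outside the enhancer cluster and the genes, levels were higher on the chromosome scale. The far upstream flank, chr11:31949955-32079920, had 1233, 1387 and 1313 in control and 1839, 1647 and 1777 in R1R2_KO. Its log2 change was 0.43 (SE 0.07), but -0.044 (edgeR adjusted p = 0.74) when reads beyond 5 Mb set the scale. The upstream flank, chr11:32080071-32131943, on the side of Mpg and Rhbdf1, was higher by 0.13 on the log2 scale (SE 0.05). This difference did not pass with the deleted blocks out of the scale (0.091), with 5 kb left out at the viewpoint (0.066), without control library 3 (0.099) or without R1R2_KO library 3 (0.12), and fell by 0.33 when reads beyond 5 Mb set the scale. The downstream flank, chr11:32204980-32320310, on the side of Sh3pxd2b, had 6123, 6604 and 6110 in control and 7114, 7124 and 7682 in R1R2_KO. The change was 0.22 on the log2 scale (SE 0.05), but -0.24 on the scale of reads beyond 5 Mb. Their change relative to the genes needs no scale: over the globin gene stretch, the far upstream flank rose by 0.85 on the log2 scale (SE 0.10), the upstream flank by 0.56 (SE 0.10) and the downstream flank by 0.65 (SE 0.09), each with groups not overlapping (exact permutation p = 0.1).

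Of the 15 higher fragments, 10 lay downstream and 5 upstream, between 6.73 and 474 kb from a viewpoint. Most of the 10 with the largest rise held few reads. The largest, chr11:32260138-32260963, went from a mean of 7.81 to 27.4, with 4 to 9 reads in each control library and 11 to 19 in each R1R2_KO library (log2 change 1.73, SE 0.52, edgeR adjusted p = 0.0087). Next came chr11:31728489-31729503, 453 kb upstream, from a mean of 8.59 to 25.1 (log2 change 1.46, SE 0.50). A group of 6 others lay 33.0 to 54.4 kb downstream, with log2 changes of 0.96 to 1.39. Of these chr11:32238150-32238686 had 29.0, 22.4 and 9.76 in control and 44.0, 66.2 and 49.6 in R1R2_KO (log2 change 1.34, SE 0.37). At 3 of the 6, chr11:32232971-32233189, chr11:32242085-32242323 and chr11:32252025-32252650, 1 R1R2_KO library overlapped the controls. The other 2 of the 10 were chr11:31707773-31708457, from 9.57 to 24.2, and chr11:32109962-32110072, from 30.5 to 55.1.

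The contacts were also accounted for as percentages of scale reads, which add up to the same total in every library, so that falls and rises balance by construction. The zones that fell lost 17.6 percentage points in sum. The deleted blocks themselves made up 15.2% of that sum, the R3, Rm and R4 blocks 10.3%, Nprl3 outside the blocks 39.8% and the interval from R4 to the end of the globin genes 34.7%. Nprl3 outside the blocks went from 20.4%, 20.8% and 20.9% in control to 13.5%, 13.9% and 13.7% in R1R2_KO. Most of the lost share thus lay outside the R1 and R2 blocks. The deletion ends are not given, so whether all of that sequence is present was not tested.

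The gains were spread widely. The flanks within 500 kb rose from 19.9%, 20.6% and 19.0% to 25.8%, 24.6% and 25.6%, which is 31.2% of the gain. The zone from 0.5 to 5 Mb rose from 6.70%, 6.57% and 6.36% to 10.9%, 10.6% and 10.6%, which is 23.8% of the gain. The rest of the chromosome rose from 23.9%, 20.1% and 20.3% to 30.2%, 29.0% and 28.8%, which is 45.0% of the gain. In each of the 7 zones the groups did not overlap (exact permutation p = 0.1). Reads on other chromosomes lie outside this account, and their share overlapped between the groups (exact permutation p = 0.7).

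**Figure D3:**
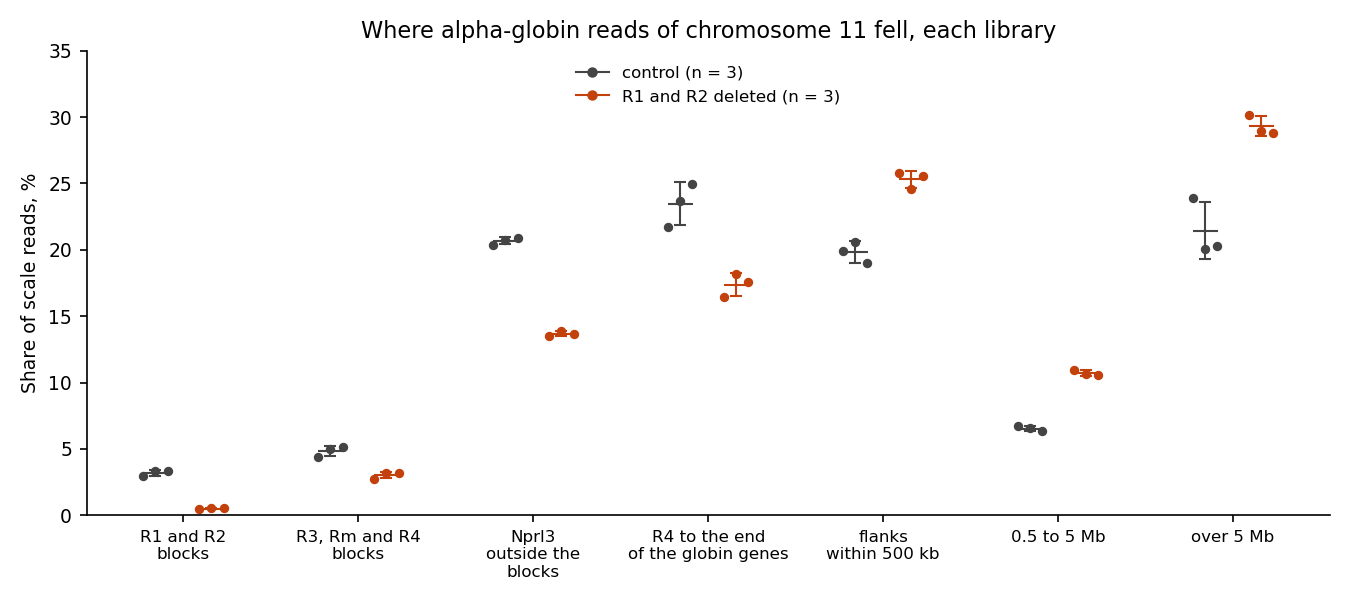
Percent of alpha-globin scale reads in 7 zones that add up to the whole in each library; points are libraries, horizontal marks means and bars SD (n = 3 per group). The 4 zones at the left fell by 17.6 percentage points in sum, and the 3 at the right rose by the same sum.

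By distance, the alpha-globin change was a loss in the bands up to 50 kb and a gain from 50 kb on. Upstream of the genes the log2 change was -0.48 at 2 to 10 kb, -0.73 at 10 to 50 kb and 0.13 at 50 to 100 kb. Downstream it was 0.03, 0.13 and 0.78 in the same bands, so on this scale no band was lower on that side. At 2 to 10 kb the share went from 23.5% ± 1.64 (SD, n = 3) to 17.8% ± 0.90 (log2 change -0.40, SE 0.05), and at 10 to 50 kb, the band that holds the enhancer cluster, from 34.3% ± 0.97 to 22.9% ± 0.70 (log2 change -0.58, SE 0.04). At 50 to 100 kb the change was 0.19 (SE 0.05), and -0.27 when reads beyond 5 Mb set the scale. From 100 kb to 20 Mb it was 0.51 to 0.79, with the largest value at 0.5 to 1 Mb (and 0.050 at 5 to 10 Mb, not passing, when reads beyond 5 Mb set the scale). At 0.5 to 1 Mb the share went from 1.84% ± 0.08 to 3.17% ± 0.19. At 20 to 50 Mb it was 0.43 (SE 0.07), and -0.020 (edgeR adjusted p = 0.57) on the scale of reads beyond 5 Mb. Over 50 Mb the share was 2.86% ± 0.64 in control, with 3.60% in library 1, and 2.90% ± 0.06 in R1R2_KO, and the log2 change was 0.02 (SE 0.12, edgeR adjusted p = 0.88). That band rests on control library 1: without it the change was 0.22 and passed (edgeR adjusted p = 0.00019). Of 12 bands, 11 passed (91.7%).

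The same libraries at the other viewpoints gave the reference. At beta-globin 1 of 12 bands passed (8.33%), 1 to 2 Mb with a change of 0.39 on the log2 scale (SE 0.11, edgeR adjusted p = 0.033), and at Slc25a37 2 of 12 (16.7%), 0.5 to 1 Mb with 0.23 and 1 to 2 Mb with 0.21 (edgeR adjusted p = 0.047 each). These counts turned on single libraries. Without control library 1, 7 of 12 bands passed at beta-globin and 7 of 12 at Slc25a37, lower at 2 to 10 kb (-0.43 and -0.16) and higher at 20 to 50 Mb (0.33 and 0.32) at both. None passed at either viewpoint without control library 2, control library 3 or R1R2_KO library 1, nor when reads within 500 kb or reads beyond 5 Mb set the scale. At Slc25a37 none passed without R1R2_KO library 2 and 1 without R1R2_KO library 3, whereas at beta-globin 3 and 2 did. When the replicate number was added to the fit as a block, 7 of 12 bands passed at beta-globin and none at Slc25a37. With all libraries, the change at 2 to 10 kb was -0.36 at beta-globin and -0.09 at Slc25a37, beside -0.40 at alpha-globin. At 50 to 100 kb, where alpha-globin rose, the values were -0.21 and -0.09, and over 50 Mb they were 0.27 and 0.02 beside 0.02 at alpha-globin. The alpha-globin change less the mean change of the other 2, taken within each library, was -0.46 at 10 to 50 kb, 0.62 at 100 to 250 kb, 0.63 at 250 to 500 kb, 0.50 at 0.5 to 1 Mb, 0.56 at 2 to 5 Mb and 0.55 at 10 to 20 Mb (SE 0.06, limma with 1 spread over all bands). All 12 bands passed 0.05 (limma, Benjamini-Hochberg), but at 2 to 10 kb and over 50 Mb the groups overlapped (exact permutation p = 0.2 each). At 2 to 10 kb the difference of -0.16 was -0.019 against beta-globin alone (limma adjusted p = 0.84) and -0.31 against Slc25a37 alone. Over 50 Mb the difference of -0.13 was -0.0089 against Slc25a37 alone (limma adjusted p = 0.90). The other 10 bands passed against each reference alone.

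**Figure D4:**
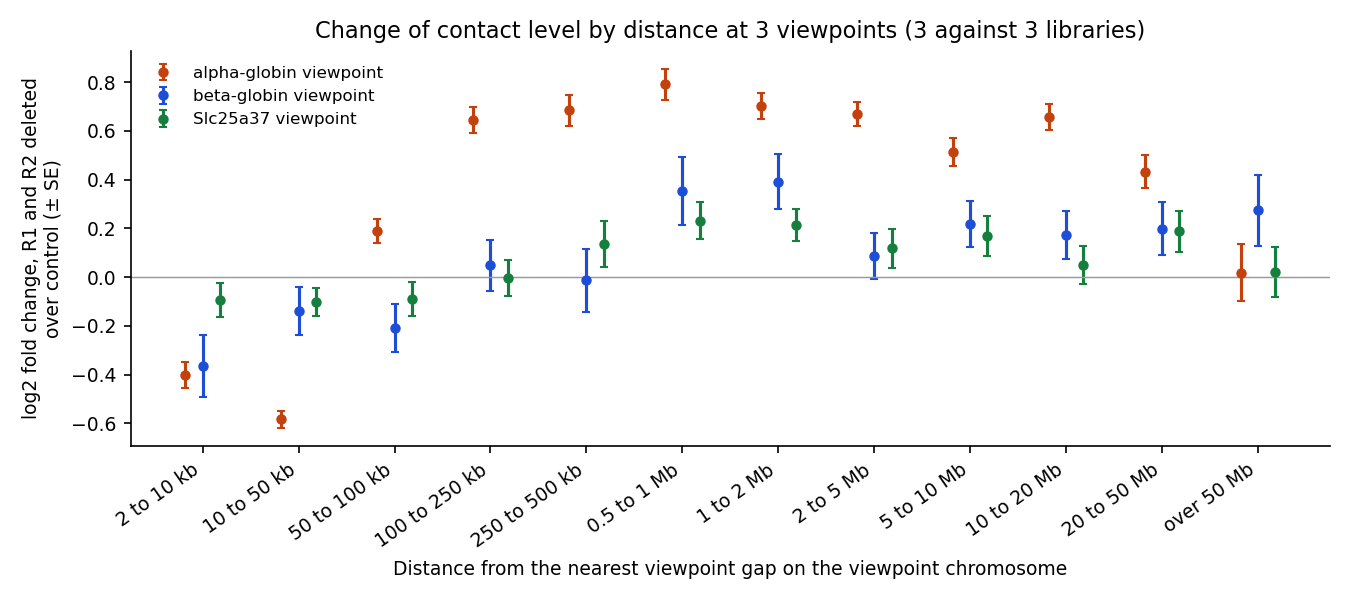
Log2 fold change (± SE) of the share of scale reads in 12 bands of distance from the nearest viewpoint gap, for the alpha-globin, beta-globin and Slc25a37 viewpoints (3 against 3 libraries). The alpha-globin points run from -0.58 at 10 to 50 kb to 0.79 at 0.5 to 1 Mb and stand apart from the other viewpoints from 10 kb to 50 Mb.

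The slope of contact with distance steepened by a like amount at each viewpoint. Between 0.5 and 20 Mb, the slope of log10 reads per kb on log10 distance went from -0.704 to -0.745 at alpha-globin, from -0.590 to -0.638 at beta-globin and from -0.614 to -0.651 at Slc25a37. The alpha-globin and beta-globin groups did not overlap (exact permutation p = 0.1) and the Slc25a37 groups did (exact permutation p = 0.3).

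The far gain was larger on the enhancer side of the genes, toward the centromere. From 0.5 to 50 Mb the upstream log2 changes were 0.62 to 0.87 by band and the downstream ones 0.28 to 0.57. Within 500 kb the order was the other way: at 10 to 50 kb, the band with the deleted elements, the upstream change was -0.73 (SE 0.04) and the downstream one 0.13 (SE 0.06), at 100 to 250 kb they were 0.41 and 0.86, and at 250 to 500 kb 0.54 and 0.95. The log2 ratio of upstream to downstream reads beyond 0.5 Mb, which no scale touches, was -0.90, -0.78 and -0.79 in control and -0.37, -0.35 and -0.38 in R1R2_KO, a difference of 0.45 (SE 0.04, exact permutation p = 0.1). The groups stood apart. At beta-globin the same ratio changed by 0.04 (SE 0.03, exact permutation p = 0.3) and at Slc25a37 by -0.05 (SE 0.04, exact permutation p = 0.4), with groups overlapping at both. The downstream arm of chromosome 11 is the longer one and alone holds reads over 50 Mb away. At 20 to 50 Mb the ratio changed by 0.51 (SE 0.07) at alpha-globin, -0.03 (SE 0.02) at beta-globin and -0.01 (SE 0.04) at Slc25a37. The outermost upstream bin of 1 Mb is centred 28.7 Mb from alpha-globin, so this band and the ratio beyond 0.5 Mb set unlike distances against each other. In the bands from 0.5 to 20 Mb, which both sides cover, the alpha-globin ratio changed by 0.22 to 0.45. Its groups overlapped only at 1 to 2 Mb. The same bands gave -0.11 to 0.32 at beta-globin, with groups overlapping in each, and -0.17 to 0.05 at Slc25a37. The Slc25a37 groups overlapped except at 1 to 2 Mb (-0.17, exact permutation p = 0.1). In that band the alpha-globin change of 0.22 was smaller than the beta-globin one of 0.32.

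Along the chromosome in bins of 1 Mb, 53 of 118 alpha-globin bins passed (44.9%), 49 higher (41.5%) and 4 lower (3.39%). All 118 had a median log2 change of 0.40. Upstream 20 of 29 bins were higher and none lower. Downstream 16 of 25 within 25 Mb were higher and none lower, and beyond 25 Mb 13 of 64 were higher and 4 lower. The 3 with the largest rise were chr11:11000001-12000000, with levels of 386, 277 and 259 in control and 801, 821 and 814 in R1R2_KO (log2 change 1.40, SE 0.11), chr11:8000001-9000000, from 90.7 to 233 (log2 change 1.38, SE 0.22), and chr11:3000001-4000000, from 318 to 744 (log2 change 1.23, SE 0.12).

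The 4 lower bins lay 26 to 70 Mb downstream among bins that were higher or did not pass. The lowest, chr11:102000001-103000000, had levels of 187, 132 and 164 in control and 93.6, 71.0 and 95.1 in R1R2_KO (log2 change -0.88, SE 0.21, edgeR adjusted p = 0.00013). Its neighbour chr11:101000001-102000000 had 150, 99.5 and 120 in control and 81.2, 68.6 and 68.2 in R1R2_KO (log2 change -0.74, SE 0.25). The bin chr11:77000001-78000000 had 419, 366 and 378 in control and 270, 241 and 254 in R1R2_KO (log2 change -0.60, SE 0.13). The fourth, chr11:58000001-59000000, named because it completes the group, had 803, 591 and 783 in control and 617, 587 and 473 in R1R2_KO (log2 change -0.37, SE 0.10), and here the groups overlapped slightly.

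In control these bins stood above their neighbours. The bin at 58 Mb held a mean level of 726 beside 475 and 413 in the bins before and after it, and in R1R2_KO 559 beside 648 and 470. The bin at 77 Mb held 388 beside 105 and 257 in control and 255 beside 164 and 217 in R1R2_KO. The pair at 101 and 102 Mb held 123 and 161 beside 113 and 48.6 in control, and 72.7 and 86.6 beside 108 and 56.1 in R1R2_KO. In bins of 500 kb, 7 were lower, and 4 of them, chr11:58500001-59000000 (log2 change -0.63), chr11:77500001-78000000 (-0.98), chr11:101000001-101500000 (-0.87) and chr11:102000001-102500000 (-1.18), lie inside the 4 bins of 1 Mb. All 4 bins of 1 Mb stayed lower past 0.05 under each of the 14 other settings run on these bins, including each library left out. The higher bins were less steady: with edgeR's TMM factors, which move the median bin by -0.45, 16 were higher and 15 lower.

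**Figure D5:**
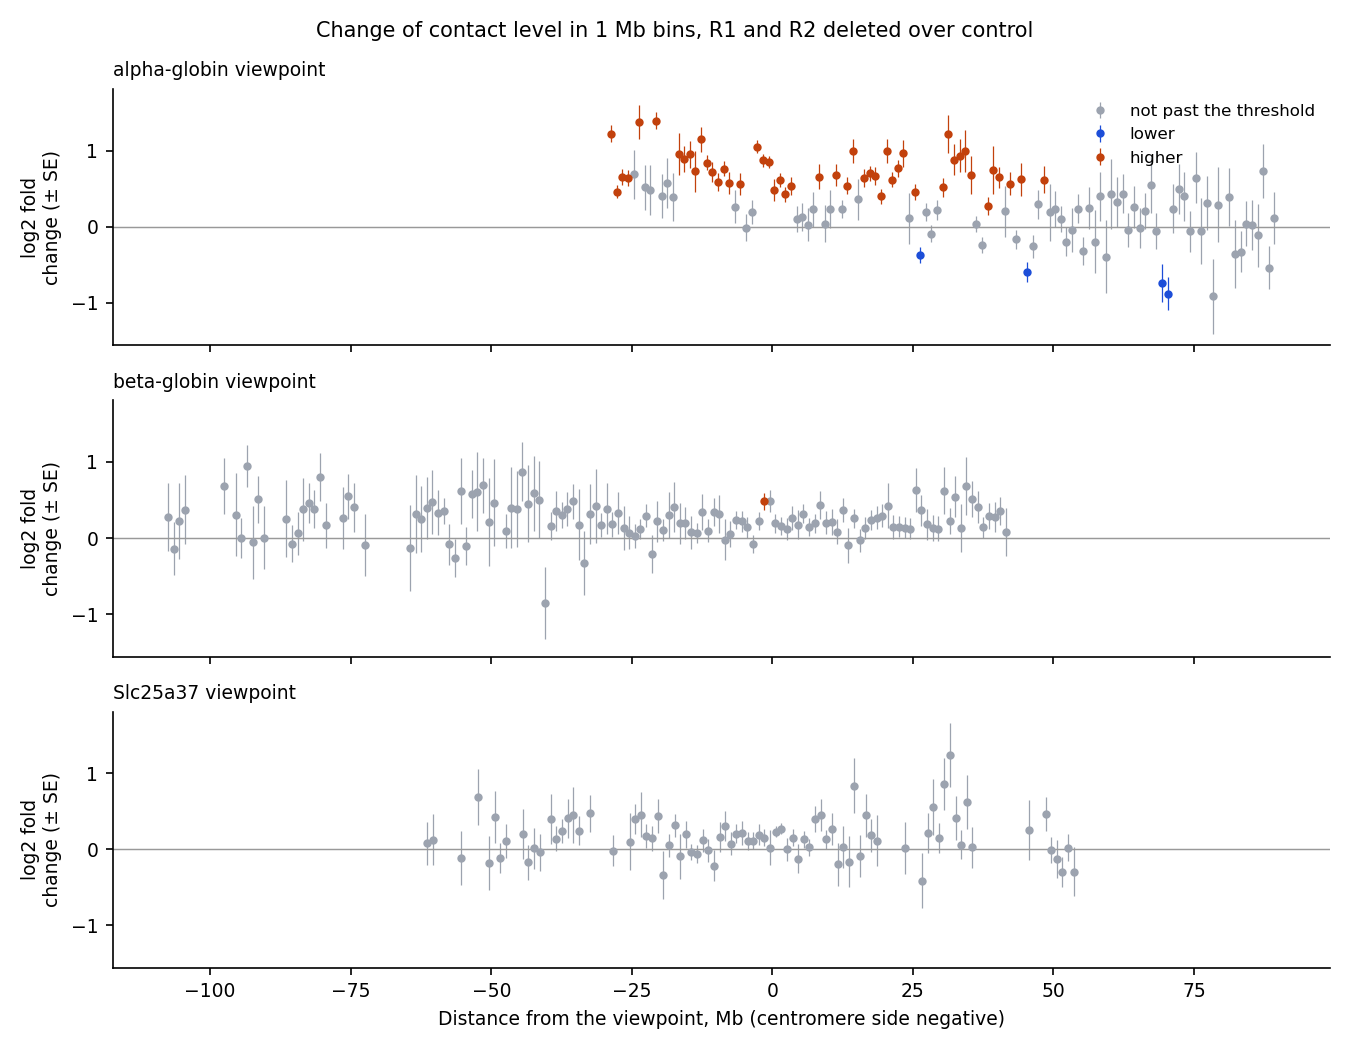
Log2 fold change (± SE) of contact level in bins of 1 Mb against distance from the viewpoint in Mb, with the centromere side negative, for the 3 viewpoints; colours mark bins called lower or higher. At alpha-globin 49 bins were higher and 4, between 26 and 70 Mb downstream, lower; at beta-globin 1 was higher and at Slc25a37 none passed.

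Few single fragments passed at the untargeted viewpoints. At beta-globin edgeR called none of 328 fragments within 500 kb (0%), with 25 at an unadjusted p under 0.05, and DESeq2 also called none. Low recovery limits this count. In simulated beta-globin counts of 328 fragments, 0% of log2 changes of 0.5 and 35.1% of log2 changes of 1 were called. In simulated alpha-globin counts of 395 fragments, 39.0% and 95.5% were. The simulations took the depth of each viewpoint and 1 common spread for all its fragments, so they do not tell depth from spread. Without R1R2_KO library 1, the one low at 29 fragments there, 1 fragment was called. Of 129 beta-globin bins of 1 Mb, 1 passed (0.775%), chr7:109000001-110000000, with levels of 4327, 3490 and 3231 in control and 6023, 4744 and 4639 in R1R2_KO (log2 change 0.48, SE 0.11); it did not pass without control library 2 or 3 or R1R2_KO library 1, and 12 bins passed without control library 1. At Slc25a37 9 of 220 fragments passed (4.09%), 8 lower (3.64%) and 1 higher (0.455%). The lowest 3 lay 24.0 to 40.3 kb away on 1 side, such as chr14:69944739-69945563, with 251, 343 and 313 in control and 178, 176 and 110 in R1R2_KO (log2 change -0.94, SE 0.24). The others were chr14:69928425-69928480 (log2 change -0.91) and chr14:69936625-69936735 (-0.87), and the 1 higher was chr14:69898388-69899249, 2.91 kb from the viewpoint (0.56), where the groups overlapped. These calls rested on single libraries: 17 fragments passed without control library 1, none without control library 2, 1 without control library 3 and 2 without R1R2_KO library 3. No Slc25a37 bin of 83 passed with edgeR, with 8 at an unadjusted p under 0.05 and none with DESeq2. The median log2 change over bins was 0.25 at beta-globin and 0.13 at Slc25a37, beside 0.40 at alpha-globin.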

How the data were processed

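The authors deposited raw read counts per DpnII fragment in mm9, 1 table per viewpoint, from reads processed with Trim Galore and Bowtie per the submitters' processing notes, whose versions are not stated in any source at hand. A further 7 columns of every file match no sample and were not used. Viewpoints were the gaps of at least 1500 bp at the captured promoters. Library size was fixed to chromosome reads over 2 kb from them. Fragments or bins with 90 or more reads over the 9 replicated libraries (control, R1R2_KO and R2R3_KO) were tested with edgeR 4.0.16 in R 4.3.3 in 1 fit per viewpoint, with group as the only term. Stretches and bands were summed first. Differences between viewpoints used limma 3.58.1, and other values Python 3.11.15. The script was tested on simulated data. Replicates are labelled biological, and the labels do not say whether litters or days were shared, so p-values cover only the spread among these libraries. Members, stretches and tests were chosen with earlier results of these data known, and ratios within a library were added after the fits. Single fragments and bins were named by rule: the 10 lowest and 10 highest calls at alpha-globin, the extremes of each stretch, all deleted fragments, and the 3 lowest and 3 highest calls elsewhere. DESeq2 1.42.0, other scales, other filters and each library left out were alternatives. No genome of mm9 was used, so no sequence of the elements is printed.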

Additional observations from a re-analysis of the deposited data

How the results depend on the processing

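Each result was recomputed under the alternatives, 1 choice at a time. Of the 14 stretches tested, R3, Rm, R4, R1 to R2, R2 to R3, R3 to Rm, Rm to R4, outside R1, R4 to Hba-x and the globin gene stretch kept their fall past 0.05 under all alternatives run. The 87 lower alpha-globin fragments stayed below 0 in every setting that tested them, and 39 stayed past the threshold on the scale set within 500 kb, 56 with TMM factors, 60 with the whole-genome scale and 73 to 83 with a library left out. Of the 15 higher, 3 stayed without control replicate 3, 7 with DESeq2, 4 with no filter on low counts and 2 on the scale of reads beyond 5 Mb. All 15 stayed with TMM factors, the whole-genome scale or the scale set within 500 kb. The median fragment moved by 0.27 on the scale set within 500 kb, by 0.16 with TMM factors and by -0.46 on the scale of reads beyond 5 Mb.

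With reads beyond 5 Mb as the scale, the outer Nprl3 stretch gave -0.43, the far upstream flank -0.044, the upstream flank -0.33, the downstream flank -0.24, and the bands 50 to 100 kb -0.27, 5 to 10 Mb 0.050, 20 to 50 Mb -0.020 and over 50 Mb -0.42. On the scale set within 500 kb the outer Nprl3 stretch gave 0.31. The upstream flank no longer passed with the deleted blocks out of the scale (0.091), with 5 kb left out at the viewpoint (0.066), without control replicate 3 (0.099) or without R1R2_KO replicate 3 (0.12), and passed with each of the other 4 libraries left out (range over all 6, 0.099 to 0.17). The band over 50 Mb ran from -0.075 to 0.22 with a library left out.

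The difference from the other viewpoints at 2 to 10 kb was -0.067 with the whole-genome scale, -0.065 with 5 kb left out, -0.019 with beta-globin as the only reference and -0.24 to -0.12 with a library left out. Over 50 Mb it was -0.033 with the whole-genome scale, -0.0089 with Slc25a37 as the only reference and -0.19 to -0.096 with a library left out. The other 10 band differences passed under all alternatives run.

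Alpha-globin bins past the threshold numbered 31 with TMM factors and 89 in bins of 500 kb. Beta-globin fragments numbered 1 with TMM factors, 5 with no filter on low counts and 0 to 1 with a library left out. Beta-globin bins numbered 0 with TMM factors, 3 with the whole-genome scale, 2 in bins of 500 kb and 0 to 12 with a library left out. Slc25a37 fragments numbered 3 with DESeq2, 4 with TMM factors, 2 with no filter, 3 with the whole-genome scale and 0 to 17 with a library left out. Slc25a37 bins numbered 2 with the whole-genome scale and 0 to 1 with a library left out. Beta-globin bands numbered 3 with DESeq2, 2 with the 6 libraries alone or 5 kb left out, 0 with either local or far reads as the scale and 0 to 7 with a library left out. Slc25a37 bands numbered 3 with DESeq2, 4 with the whole-genome scale, 0 with the 6 libraries alone or with local or far reads as the scale, and 0 to 7 with a library left out.

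In percentage points with the whole-genome scale, the R1 and R2 blocks changed by -1.71, the R3, Rm and R4 blocks by -1.08, Nprl3 outside the blocks by -4.08, R4 to the end of the globin genes by -3.44, the flanks by 4.29 and 0.5 to 5 Mb by 3.01. With 5 kb left out at the viewpoint the first 4 gave -3.14, -2.26, -8.84 and -2.90. With the deleted blocks out of the scale Nprl3 outside the blocks gave -7.60.

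With the replicate number as a block, 99 alpha-globin fragments passed, 2 beta-globin bins, 5 Slc25a37 fragments, 2 Slc25a37 bins, 7 beta-globin bands (1 without it) and no Slc25a37 band (2 without it). The numbers were not taken as pairs. The correlation of same-numbered deviations was 0.23, 0.09 and 0.10 at alpha-globin and 0.28, -0.06 and 0.21 at beta-globin. At Slc25a37 it was 0.03, 0.02 and 0.10. These values do not settle whether equal numbers mark pairs. Each of the 3 R1R2_KO libraries at alpha-globin correlated best with the control of its own number.

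Depth limits the fragments: single fragments beyond the genes hold few reads. At beta-globin no log2 change of 0.5 in a fragment was recovered from simulated counts, which do not tell depth from spread.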
